A study of Mus musculus with 2 samples.

Results

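The 35 genes described here mark the epithelial and the mesenchymal state of a carcinoma cell, and their levels were read in single tumor cells of mouse pancreatic tumors. They were found by their symbols among the 32285 genes of the count table, and all 35 were present. Of these, 19 are epithelial genes (4 keratins, 2 adhesion genes, 6 tight junction genes, 3 desmosome genes and 4 regulators) and 16 are mesenchymal genes (a cadherin and a filament gene, 6 transcription factors, 3 contractile genes and 5 matrix genes). The comparison asked how these programs stood in tumors left after incomplete irreversible electroporation (iIRE), in which electric pulses permeabilize cell membranes but leave part of the tumor alive, and in control tumors.

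Both groups were orthotopic tumors grown from KPC (FC1199) cells, a single mouse pancreatic cancer line with Trp53 R172H/+ and Pdx1-Cre among its alleles, which were injected into the tail of the pancreas of male C57BL/6 mice of 5 to 7 weeks. In the iIRE group, tumors received the pulses at a size of 7 to 9 mm. The control tumors were sham-operated by the labels and the methods, with needles inserted and no pulses, while the results of the study call them untreated. Tumors of both groups were collected on day 3 and measured with the 10x Genomics 5′ v2 chemistry as 1 library per group, and the number of mice behind a library was not given in the sources used here. With no replicate, the groups could not be tested, the spread between tumors is unknown, and every interval below is a 95% interval that covers counting error only.

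Tumor cells were taken as cells with at least 10000 UMIs (unique molecular identifiers, counted RNA molecules), at least 3 UMIs of Cdkn2a, and under 0.1% of UMIs from the complement genes C1qa, C1qb and C1qc of macrophages. This gave 5653 control and 5038 iIRE tumor cells of 37971 barcodes, with medians of 20436 and 18365.5 UMIs per cell. The KPC cells carried almost no RNA of Y-linked genes, which the male hosts transcribe. Their level, as UMIs per 1000000 UMIs (CPM), was 0.512 in control and 0.300 in iIRE tumor cells, against 120 and 116 CPM in macrophages. Host fibroblasts, taken by their collagen UMIs and at most 1 Cdkn2a UMI, were few, with 44 control and 60 iIRE cells, and carried 112 and 100 CPM of Y-linked RNA.

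In an epithelial cell, keratins 8 and 18 and their partners form the intermediate filaments, E-cadherin and EpCAM hold neighbors together, claudins, occludin and ZO-1 seal tight junctions, and desmosomes anchor the filaments to the membrane. In epithelial-mesenchymal transition (EMT), transcription factors of the Snail, Zeb and Twist families repress such genes by binding E-box sequences, while vimentin, N-cadherin, contractile proteins and matrix are gained. Pancreatic cancer cells are known to hold states between these ends, and fibroblasts use many of the same mesenchymal genes.

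Promoters are shown for genes whose RNA marked the epithelial end, because the E-box letters CACCTG, or CAGGTG on the opposite strand, are what Snail and Zeb factors bind. RefSeq gave promoter windows on GRCm38.p6 for 21 of the 35 genes, each of 300 bases from 250 before to 50 after a start, and only the 250 bases before the start are printed. Capitals mark the 6 letters, searched on both strands, and a match is a description of the letters and not a bound site.
Epcam, the EpCAM adhesion gene, chr17:87635729-87635978, plus strand: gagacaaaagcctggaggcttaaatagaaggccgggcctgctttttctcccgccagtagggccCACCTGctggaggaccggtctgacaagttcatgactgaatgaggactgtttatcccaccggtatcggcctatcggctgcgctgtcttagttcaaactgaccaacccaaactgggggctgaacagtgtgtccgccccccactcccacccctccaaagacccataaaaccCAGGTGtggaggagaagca
Cldn7, a claudin gene, its downstream start, chr11:69965171-69965420, plus strand: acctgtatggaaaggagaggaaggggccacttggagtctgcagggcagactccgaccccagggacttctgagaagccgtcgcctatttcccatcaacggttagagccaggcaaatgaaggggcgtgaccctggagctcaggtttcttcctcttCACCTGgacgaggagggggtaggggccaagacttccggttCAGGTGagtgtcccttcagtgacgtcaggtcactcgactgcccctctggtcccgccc
Elf3, an epithelial ETS transcription factor gene, chr1:135258473-135258722, minus strand: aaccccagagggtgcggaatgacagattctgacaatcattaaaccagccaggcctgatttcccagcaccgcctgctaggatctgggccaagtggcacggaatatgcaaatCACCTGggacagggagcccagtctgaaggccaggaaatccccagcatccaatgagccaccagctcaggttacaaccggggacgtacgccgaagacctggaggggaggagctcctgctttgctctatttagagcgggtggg
Krt8, the keratin 8 gene, chr15:102004343-102004592, minus strand: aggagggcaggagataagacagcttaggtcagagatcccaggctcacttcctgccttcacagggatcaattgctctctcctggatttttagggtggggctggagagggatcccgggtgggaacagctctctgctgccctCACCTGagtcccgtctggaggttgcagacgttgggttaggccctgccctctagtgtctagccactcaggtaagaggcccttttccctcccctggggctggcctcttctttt
Jup, the plakoglobin gene of desmosomes and adherens junctions, chr11:100397791-100398040, minus strand: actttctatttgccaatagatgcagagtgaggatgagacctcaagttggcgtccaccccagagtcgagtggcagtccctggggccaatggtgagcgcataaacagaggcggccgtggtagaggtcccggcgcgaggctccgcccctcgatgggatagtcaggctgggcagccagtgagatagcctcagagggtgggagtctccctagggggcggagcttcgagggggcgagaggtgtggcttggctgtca
Vim, the vimentin gene, chr2:13574061-13574310, plus strand: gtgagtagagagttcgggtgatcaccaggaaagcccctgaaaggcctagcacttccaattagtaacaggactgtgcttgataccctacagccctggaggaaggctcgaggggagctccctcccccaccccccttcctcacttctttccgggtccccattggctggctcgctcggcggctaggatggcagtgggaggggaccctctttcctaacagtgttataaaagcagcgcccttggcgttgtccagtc

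Epcam held the letters at -187 and -19 from its start, Cldn7 at -97 and -57, Elf3 at -140 and Krt8 at -111. Jup and Vim, shown for contrast, held none in these windows. Of the 12 epithelial genes with a window, 10 had a match in at least 1 window, and the other two were Tjp1 and Jup. Of the 9 mesenchymal genes, 2 had a match, Snai1 and Sparc. Over all genes the share was 22.6% of 27025, and over all windows it was 20.2% of 32851. The search was made with the letters known as EMT factor sites, and it was not tied to any measurement of binding. Windows for Krt19, Cdh1, Cldn9, Pkp3, Esrp1, Grhl2, Ovol1, Cdh2, Zeb1, Snai2, Tagln, Lum, Dcn and Mgp were not used here.

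Tumor cells of both libraries carried filament keratins and mesenchymal genes together, with little RNA for cell-cell adhesion. Krt8 was at 1053 CPM (1047 to 1058) in control and 1203 CPM (1196 to 1210) in iIRE tumor cells. Its filament partner Krt18 was at 1188 CPM in control and 1378 in iIRE tumor cells. These levels are sums of 5′ UMIs and are compared between libraries and cells of 1 gene, not between genes. To set the genes at a common depth, every cell was thinned to 3000 UMIs, and macrophages, which should lack keratins, gave the share that stray RNA can produce. Krt8 was then seen in 74.2% of control and 75.6% of iIRE tumor cells, against 2.76% and 1.57% of macrophages. Before thinning, it was seen in 94.6% and 94.1% of tumor cells. Keratin 8 RNA was therefore present in most tumor cells, while the ductal keratin Krt19 was seen in 29.8% of both libraries.

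Krt7, another ductal keratin, was seen in 2.39% and 2.58% of tumor cells at 3000 UMIs, and Epcam in 1.73% and 2.38%. In macrophages these shares were 0.325% and 0.174% for Krt7. For Epcam they were 0 of 615 control cells, which allows up to 0.488%, and 0.174% in iIRE. Cdh1, which encodes E-cadherin, was seen in 1.08% of control and 1.45% of iIRE tumor cells, and in 1.30% and 1.05% of macrophages. At this depth its share in tumor cells was thus near that in macrophages. Host fibroblasts had 0 Cdh1 UMIs in control and 1 in iIRE, and the source of the Cdh1 UMIs in macrophages was not tested. Over all UMIs, Cdh1 stood at 3.91 CPM in control and 5.26 CPM in iIRE tumor cells, and at 3.13 and 5.04 CPM in macrophages.

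The other junction genes split into those with broad RNA and those with hardly any. Jup, or plakoglobin, was at 208 CPM in control and 207 CPM in iIRE tumor cells and was seen in 43.4% and 43.7% of them at 3000 UMIs. Tjp1, which encodes the scaffold ZO-1, was at 104 and 96.1 CPM and was seen in 27.1% and 25.05%. Both proteins also serve at junctions of non-epithelial cells. The claudins Cldn3, Cldn7 and Cldn9 lay between 6.60 and 10.1 CPM, Ocln (occludin) at 1.11 and 1.27 CPM, and Cldn4 at 0.386 and 0.484 CPM. Of the desmosome genes, Dsp (desmoplakin) was at 0.693 and 1.24 CPM and Pkp3 (plakophilin 3) at 0.394 and 0.532 CPM.

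Among the epithelial regulators, Elf3 was at 6.87 CPM in control and 11.2 CPM in iIRE tumor cells. Grhl2, a factor that maintains epithelial junction genes, had 25 and 34 UMIs in all tumor cells. Esrp1, an epithelial splicing regulator, had 9 and 11 UMIs, and Ovol1, a repressor of mesenchymal genes, had 3 and 2. Esrp1 and Ovol1 were under the 50 UMIs set for counting, and 33 of the 35 genes passed it.

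Mesenchymal RNA was broad. Vim was at 7096 CPM (7082 to 7111) in control and 7628 CPM (7611 to 7645) in iIRE tumor cells and was seen in 99.9% and 99.8% of them at 3000 UMIs. Macrophages express Vim themselves, with 97.6% in both libraries. Cdh2, which encodes N-cadherin, was at 21.4 and 23.2 CPM and was seen in 6.16% and 6.21% of tumor cells, and in 0 of 615 control and 0 of 574 iIRE macrophages, which allows shares of up to 0.488% and 0.523%.

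All 6 EMT transcription factors were measured in tumor cells. Snai1 (Snail) was at 65.8 CPM in control and 74.7 CPM in iIRE tumor cells and was seen in 17.3% and 19.97% of them, and, like Cdh2, in 0 of the macrophages. Twist1, a basic helix-loop-helix factor, was at 58.8 and 57.0 CPM, and Prrx1, a homeobox factor, at 78.8 and 81.2 CPM. Their shares were 14.8% and 15.2% for Twist1 and 18.2% and 17.7% for Prrx1. The zinc finger repressor Zeb1 was at 60.3 and 57.0 CPM, and its paralog Zeb2 at 151 and 138 CPM. Zeb2 was seen in 77.9% and 78.0% of macrophages, which use it themselves, while Zeb1 was seen in 1.14% and 1.39%. Snai2 (Slug) was the sparsest of the group, at 5.53 and 4.26 CPM.

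The matrix genes ranged from broad to rare. Sparc, which encodes osteonectin, was at 1788 and 1829 CPM and was seen in 90.7% and 91.6% of tumor cells at 3000 UMIs. Mgp, the matrix Gla protein gene, was at 433 and 503 CPM. Lum and Dcn encode the small proteoglycans lumican and decorin, and both were seen in few cells, Lum in 8.77% and 9.65% and Dcn in 11.2% and 11.3%. Postn (periostin) was at 4.16 CPM in control and 4.01 CPM in iIRE tumor cells, and 45.2% and 38.3% of its UMIs lay in 1 cell of each library. Cald1, which encodes caldesmon, was at 841 and 781 CPM. Acta2 (smooth muscle actin) was seen in 5.56% and 3.81% of tumor cells and Tagln (transgelin) in 0.407% and 0.417%.

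**Figure D1:**
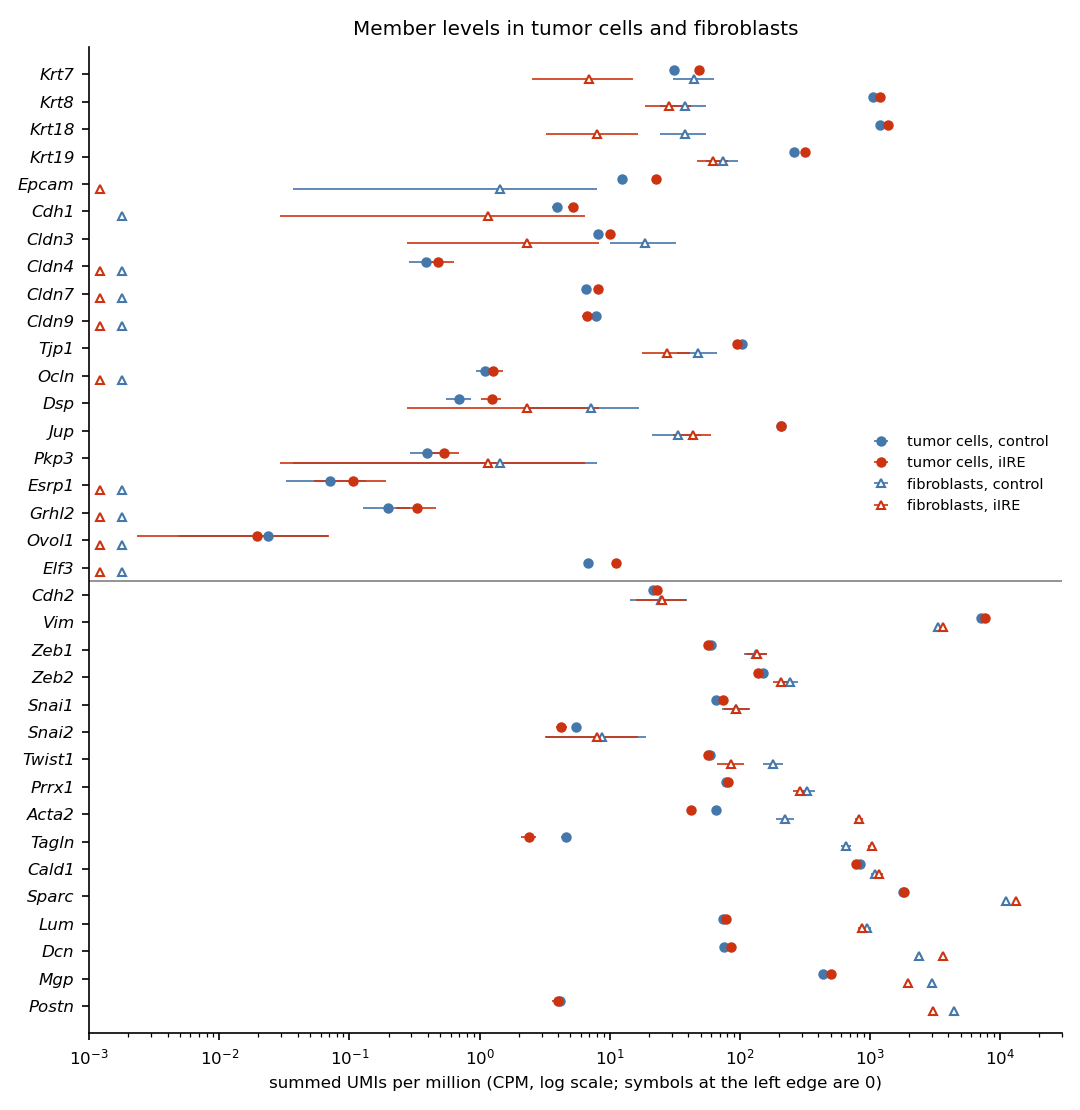
Level of each gene in CPM (UMIs summed over cells, log axis) in tumor cells (filled circles) and host fibroblasts (open triangles) of the control (blue) and iIRE (red) library, with exact 95% intervals of the counts, epithelial genes above the line and mesenchymal genes below, and symbols at the left edge standing for 0 UMIs. Krt8, Krt18, Krt19, Jup and Vim lay higher in tumor cells than in fibroblasts of both libraries, and Postn lay lowest in tumor cells relative to fibroblasts, at 4.16 against 4426 CPM in the control library.

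Host fibroblasts, the resident mesenchymal cells of these tumors, gave a reference for both programs. A gene was counted as higher or lower when it was past 2-fold the same way in both libraries, after 10 CPM was added to each level. Of the 16 mesenchymal genes, 9 were higher in fibroblasts (Zeb1, Prrx1, Acta2, Tagln, Sparc, Lum, Dcn, Mgp and Postn) and 1, Vim, was lower, where 5.93% of all 14563 genes were higher and 4.92% lower. Of 17 epithelial genes measured, 4 were lower in fibroblasts (Krt8, Krt18, Krt19 and Jup) and 0 higher. The counts for mesenchymal genes were the same with fibroblasts from 5000 UMIs, with a collagen share of 2%, and with cells that had a Y-linked UMI. Fibroblasts were picked by collagen RNA in every setting and tumor cells were not. Higher matrix RNA in fibroblasts is therefore in part set by that choice.

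Vim was at 3350 and 3674 CPM in fibroblasts of the control and the iIRE library, 0.472 and 0.482 times the level in tumor cells. Postn was at 4426 and 3053 CPM in fibroblasts, and Tagln at 659 and 1034 CPM against 4.58 and 2.39 CPM in tumor cells. Sparc was nearer, 6.25 and 7.29 times its tumor cell level. Zeb1 was 2.21 and 2.38 times its tumor cell level in fibroblasts, while Snai1, at 94.1 and 94.4 CPM, and Cdh2, at 24.6 and 25.3 CPM, stayed within 2-fold of tumor cells. Twist1 was 3.08 times its tumor cell level in the control and 1.49 times in the iIRE library. Against host fibroblasts picked by their collagen RNA, tumor cells had more Vim RNA and less RNA of the matrix genes and of Acta2 and Tagln.

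In the fibroblasts, RNA of Krt8, Krt18 and Krt19 was below the tumor cell level. Krt8 was at 37.7 and 28.8 CPM there, Krt18 at 37.7 and 8.06 CPM, and Krt19 at 73.9 and 62.2 CPM. With a collagen share of 2%, Krt8 was at 7.32 and 5.59 CPM and Krt19 at 12.8 and 6.98 CPM. In control fibroblasts, Krt7 (44.9 CPM, 31 UMIs), Cldn3 (18.8 CPM, 13 UMIs), Dsp (7.24 CPM, 5 UMIs) and Pkp3 (1.45 CPM, 1 UMI) lay above the tumor cell level. Elf3, Cldn4, Cldn7, Cldn9, Ocln, Esrp1, Grhl2 and Ovol1 had 0 UMIs in both fibroblast groups, where 3 counts correspond to 4.34 CPM in control and 3.46 CPM in iIRE fibroblasts. For Cldn4, Ocln, Esrp1, Grhl2 and Ovol1 these limits lie above the tumor cell level, so a difference was not detectable at this depth. Elf3, Cldn7 and Cldn9 were above the limits in tumor cells, with intervals from 6.42, 6.16 and 7.33 CPM in control and from 10.6, 7.601 and 6.18 CPM in iIRE. Of the 31 Krt7 UMIs in control fibroblasts, 93.5% were in 1 cell.

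Between the groups, a few epithelial genes were higher after iIRE, led by Epcam and Krt7, and most mesenchymal genes were within 1.2-fold. A gene entered the count from 50 UMIs in the libraries combined, and was called when its ratio, with 10 CPM added to both levels, was past 1.2-fold. Of 17 epithelial genes measured, 4 were higher in iIRE tumor cells (Krt7, Epcam, Krt19 and Elf3) and 0 lower, where 0.584% of 14381 genes were higher and 0.834% lower. Of 16 mesenchymal genes, 0 were higher and 1, Acta2, was lower. Past 2-fold there were 0 in either direction, against 0.0139% of all genes higher and 0.0278% lower. The median log2 ratio was 0.13 over the epithelial genes, 0.01 over the mesenchymal genes and -0.00 over all genes.

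Epcam was at 12.3 CPM (11.7 to 13.0) in control and 22.6 CPM (21.7 to 23.5) in iIRE tumor cells, a log2 ratio of 0.55. Krt7 was at 31.2 CPM (30.3 to 32.2) and 48.4 CPM (47.0 to 49.7), a log2 ratio of 0.50. For Elf3 the log2 ratio was 0.33, and for Krt19, at 260 CPM (257 to 263) and 319 CPM (315 to 322), it was 0.28. The intervals given for these genes hold counting error only and no spread between tumors. The more broadly expressed Krt8 and Krt18 had log2 ratios of 0.19 and 0.21, under 1.2-fold. With 1 CPM added in place of 10, which lets low genes count, 8 epithelial genes were higher, Cdh1, Cldn3, Cldn7 and Dsp in addition, and 3 mesenchymal genes lower, Tagln and Snai2 in addition. At this setting 3.34% of all genes were higher and 3.39% lower. With no doublets removed, 3 epithelial genes were higher, without Krt19, and 2 mesenchymal genes lower, with Tagln, where 0.57% of all genes were higher and 0.629% lower.

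By role, UMIs summed over the adhesion genes Epcam and Cdh1 gave 16.3 CPM in control and 27.9 CPM in iIRE tumor cells, a log2 ratio without added CPM of 0.78. The 4 regulators, a sum made up mostly of Elf3, had a log2 ratio of 0.71 on this scale and the 4 keratins 0.22. The 6 tight junction genes were at -0.06 and the 3 desmosome genes at 0.00, sums made up mostly of Tjp1 and Jup. The sum of all 19 epithelial genes was 2891 CPM in control and 3320 CPM in iIRE tumor cells, a log2 ratio of 0.20 (0.19 to 0.21).

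On the mesenchymal side, the sum of the 16 genes was 10825 CPM in control and 11390 CPM in iIRE tumor cells, a log2 ratio of 0.07, and without Vim it was 3728 and 3762 CPM, a log2 ratio of 0.01. Acta2 was at 65.6 CPM (64.2 to 67.0) in control and 42.4 CPM (41.1 to 43.6) in iIRE tumor cells, a log2 ratio of -0.53 with 10 CPM added. Its contractile partner Tagln was at 4.58 and 2.39 CPM. These UMIs were bunched, since the 1% of tumor cells with most Acta2 held 54.0% of its UMIs in control and 56.8% in iIRE tumor cells. The sum of the 6 EMT factors was at 420 and 412 CPM, a log2 ratio of -0.03, and Snai1 alone was at 0.16. The 5 matrix genes were at 0.07, with Mgp the highest among the mesenchymal genes at 0.21.

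In fibroblasts, Acta2 went the other way, from 223 CPM (189 to 261) in control to 827 CPM (768 to 890) in iIRE fibroblasts, a log2 ratio of 1.84. It was seen in 20 of 44 control and 34 of 60 iIRE fibroblasts, and 26.0% and 16.9% of its UMIs were in 1 cell. Tagln was at 659 and 1034 CPM in the same cells. Markers of other cell types differed between these groups as well. The 5 mesothelial markers summed to 350.5 CPM in control and 153 CPM in iIRE fibroblasts, the 5 neutrophil markers to 65.2 CPM and 0, and the 5 T and NK cell markers to 47.8 CPM and 0. The 5 pericyte markers summed to 72.4 and 69.1 CPM, and the part of such cells in the Acta2 values was not tested. Mgp went from 3031 to 1973 CPM, with 44.5% of the control UMIs in 1 cell. Dcn was at 2392 and 3660 CPM and Postn at 4426 and 3053 CPM. With so few cells, and 1 library per group, the values describe these fibroblasts alone.

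RNA of other cell types was found in the tumor cells, and its amount differed between the libraries, with its part in these ratios not tested beyond the values given next. The 5 neutrophil markers summed to 56.0 CPM in control and 2.89 CPM in iIRE tumor cells with none of the 5 at 0 in either library, and S100a8 and S100a9 made up most of it, at 20.6 and 34.7 CPM in control. The 10 macrophage markers summed to 30.5 and 24.3 CPM, the 5 acinar markers to 43.4 and 36.3 CPM, and the 8 fibroblast markers to 6640 and 5896 CPM, most of these from collagen genes that KPC tumor cells also expressed. In the clusters of tumor cells described next, 2 clusters had over 5 CPM of Y-linked RNA, with 264 control and 84 iIRE cells. Without these, the log2 ratios were 0.57 for Epcam, 0.53 for Krt7, 0.28 for Krt19, 0.34 for Elf3 and -0.54 for Acta2.

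To see where the 2 programs sat, tumor cells were clustered on 2077 variable genes that included none of the 35. The clusters numbered 11, from 3207 to 65 cells, and 31 of the 33 measured genes, all but Vim and Cdh2, had a range over 5-fold across them. A sparse gene with 0 UMIs in any cluster passes this limit by that alone. Grhl2, Cldn4 and Pkp3, for example, had 0 UMIs in the cluster of 65 cells. No share over all genes is given beside this count, so it does not set these genes apart from others. Over the 11 clusters, the epithelial sum, made up mostly of keratins, and the mesenchymal sum without Vim were ranked in nearly opposite order. Their Spearman rho was -0.89, given as a description of 11 points that share libraries. At a resolution of 1.0, with 18 clusters, rho was -0.92, and from another random start, with 10 clusters, it was -0.88.

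At the epithelial end stood a cluster of 151 cells, numbered 9, led by Lgals4, Lgals2, Dmbt1, Clu, Krt20, Apoc2, Agr2 and Muc5ac, several of which are genes of gut-type secretory and absorptive epithelium. It held 67 control cells, 1.19% of the tumor cells (0.920% to 1.503%), and 84 iIRE cells, 1.67% (1.33% to 2.06%). It had 0 Y-linked UMIs among 3191519, which allows up to 0.940 CPM, and Cdkn2a was at 669 CPM, against 1366 and 1470 CPM in all tumor cells of the 2 libraries. The same 151 cells came together under both other clusterings.

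Cluster 9 had the most RNA of the clusters for most junction genes, other than Cldn9, Jup and Tjp1. Epcam was at 866 CPM, Cdh1 at 174, Cldn3 at 262, Cldn7 at 220, Ocln at 32.0, Dsp at 57.0 and Elf3 at 484 CPM. The ductal keratins Krt7 and Krt19 were at 2076 and 4937 CPM, and Krt8 and Krt18 at 6560 and 5296 CPM. Cdh1 outside this cluster was at 2.14 CPM in control and 2.13 CPM in iIRE tumor cells, no higher than in macrophages, but at 11.1 CPM in cluster 5. Cluster 9 held 1.22% of the control and 1.58% of the iIRE tumor cell UMIs. It held 65.5% and 74.3% of the Epcam UMIs, 68.1% and 78.5% of those of Krt7, 71.6% and 79.3% of those of Elf3, and 45.9% and 60.1% of those of Cdh1.

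Vim was kept in these cells at 5515 CPM, and it made up 1.01% and 1.08% of the libraries' Vim UMIs. The matrix and EMT factor genes were not kept at such levels. Sparc was at 24.4 CPM, Mgp at 2.51 and Cald1 at 62.7 CPM in cluster 9, and Lum and Dcn at 0.313 CPM, 1 UMI each. Snai1 was at 2.51 CPM, Twist1 at 4.07 and Prrx1 at 0.940 CPM, while Zeb1 was at 28.5 and Zeb2 at 13.2 CPM. Jup and Tjp1, at 234 and 128 CPM, lay within the range of the other clusters.

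With 10 CPM added, the 4 epithelial calls between the groups were lost without these 151 cells. Cluster 9 was picked as the cluster with the highest epithelial sum, so the loss is in part set by that choice. Without cluster 9, 0 of 15 epithelial genes measured were higher, against 0.498% of 14243 genes, and 0 lower, against 0.843%. Krt7 was then at 10.1 and 10.6 CPM, a log2 ratio of 0.03, and the log2 ratio was 0.05 for Elf3, 0.15 for Epcam and 0.16 for Krt19. For Epcam, at 4.31 and 5.90 CPM, the added 10 CPM weighed most. Without it the Epcam ratio was 1.37, still past 1.2-fold, with a log2 interval of 0.28 to 0.62. Elf3 was at 1.98 and 2.37 CPM, a ratio of 1.198 without added CPM. Krt8 and Krt18 hardly moved, at 0.18 and 0.21, and Acta2 stayed at -0.53. The cluster made up more of the iIRE library, and within it 9 of 14 epithelial genes were higher in iIRE cells and 0 lower, where 15.8% of 6854 genes were higher and 14.5% lower. Of 5 mesenchymal genes measured there, 1 was lower, Sparc, from 38.6 CPM in control by a log2 ratio of -1.21.

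Within cluster 9, Epcam was at 660.5 CPM in control and 1062 CPM in iIRE cells, Krt7 at 1737 and 2398 CPM, and Krt19 at 4312 and 5531 CPM. The spread between cells was wide. The median cell had 104 CPM of Epcam in control, with quartiles of 0 and 1110, and 531 CPM in iIRE, with quartiles of 0 and 1870. For Krt7 the medians were 1063 and 1672 CPM, and for Elf3 341 and 505 CPM, with overlapping quartiles. Krt8 was alike, at 6505 and 6612 CPM.

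**Figure D2:**
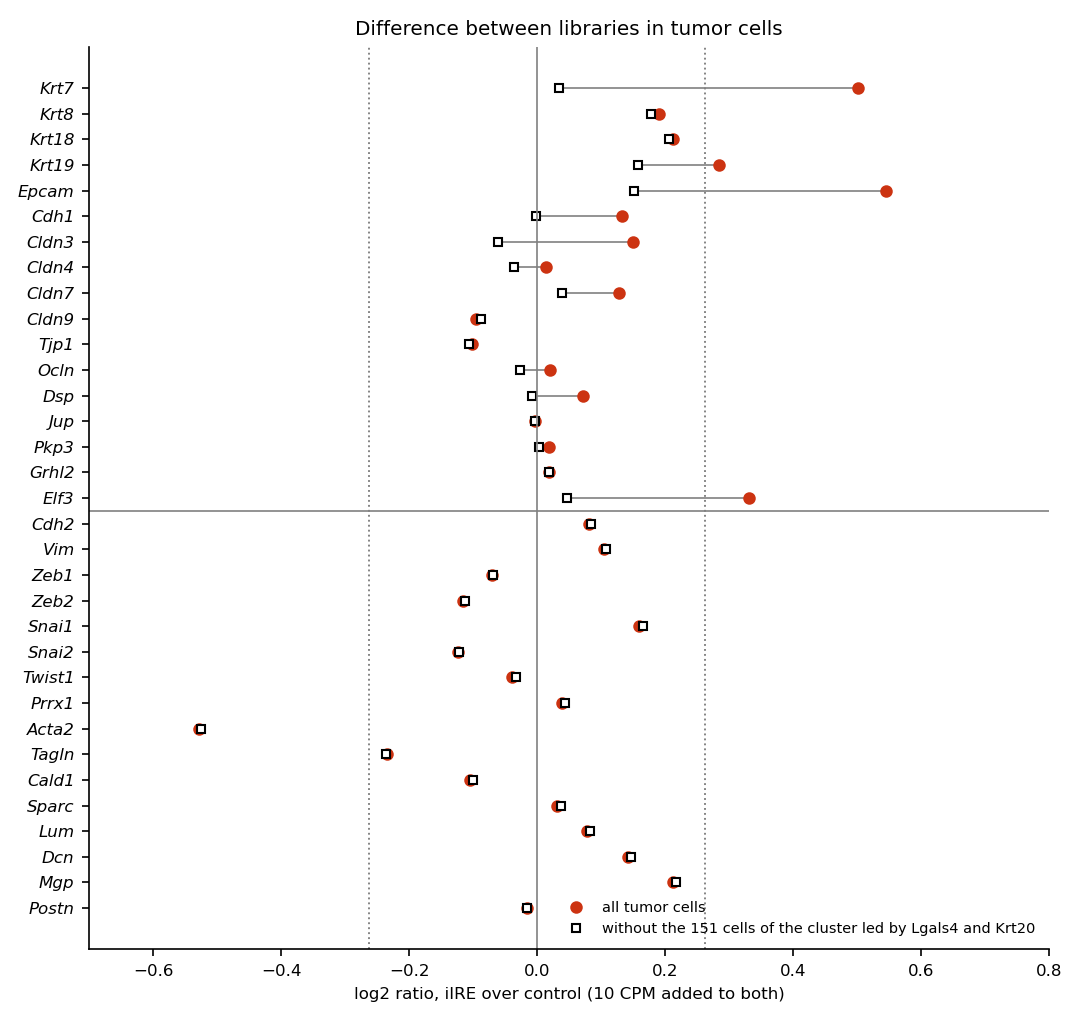
Log2 ratio of each gene, iIRE over control, with 10 CPM added to both levels (x axis), over all tumor cells (red circles) and without the 151 cells of cluster 9 (open squares); dotted lines mark 1.2-fold, epithelial genes are above the line, and Esrp1 and Ovol1 are left out. Krt7, Epcam, Elf3 and Krt19 crossed back over the dotted line without the cluster, to between 0.03 and 0.16, and Acta2 stayed at -0.53. The cluster was picked for its epithelial sum, the highest of all, and Epcam without added CPM stayed at a ratio of 1.37.

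At the mesenchymal end stood cluster 2, with 1862 cells led by Mest, Col1a2 and Serpinf1. Prrx1 was at 258 CPM, Lum at 320, Dcn at 275, Acta2 at 279 and Mgp at 1511 CPM there. Sparc was at 3987 CPM and Snai1 at 121 CPM, the highest of the 11 clusters for both, while Krt8 was at 359 CPM, the lowest. Y-linked RNA was at 0.617 CPM and Cdkn2a at 1003 CPM in these cells, against 112 and 100 CPM of Y-linked RNA in the host fibroblasts of the 2 libraries. Of the Acta2 UMIs of all tumor cells, 9488 were in this cluster, and 809 of those of Postn. Cluster 7, 803 cells led by neutrophil RNA (S100a9, Ngp, S100a8) and histone genes, was the next in Lum, at 250 CPM, and Prrx1, at 185 CPM.

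The largest cluster, 3207 cells led by Penk and Ecrg4, was intermediate, with Krt8 at 808 CPM, Sparc at 2217 CPM and Jup at 300 CPM. Cluster 5, 954 cells led by Npnt, Slurp1 and Aqp5, had more keratin, with Krt8 at 1862 and Krt19 at 612 CPM, and both cadherins, with Cdh1 at 11.1 and Cdh2 at 42.7 CPM. Cluster 4, 981 cells led by Ero1l, Ndrg1 and Vegfa, genes that respond to low oxygen, had Krt19 at 713, Tjp1 at 166 and Vim at 9243 CPM. Cldn9 was at 24.1 CPM in cluster 6, led by Ung, at 13.1 in cluster 5 and at 12.3 in cluster 3, led by Ube2c, against 2.82 CPM in cluster 9 and 0.188 CPM in cluster 7. Cldn9, a claudin, thus did not follow the other junction genes across clusters.

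**Figure D3:**
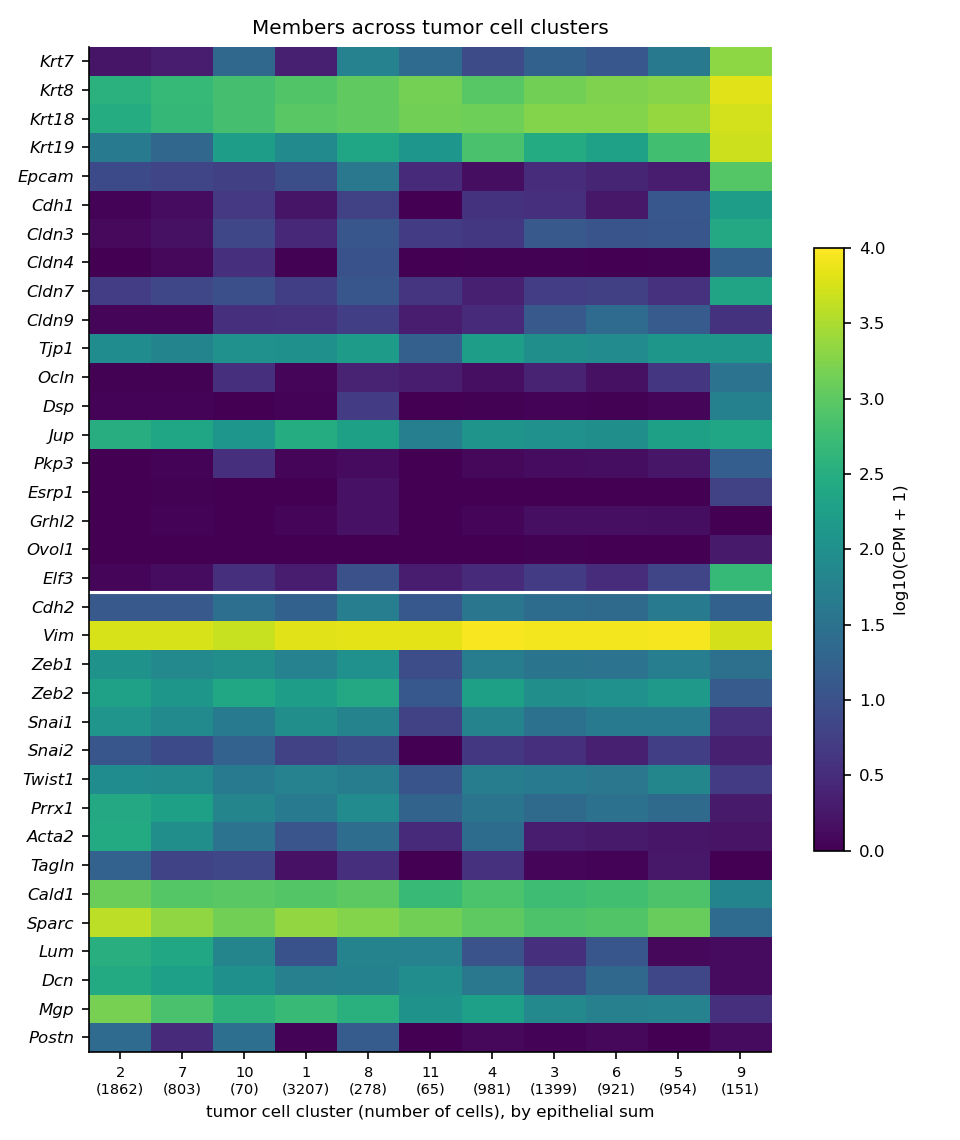
Level of each gene, as log10(CPM + 1) by color, in the 11 tumor cell clusters (columns, ordered by epithelial sum, with their numbers of cells) with both libraries together. Epcam, Cdh1, Elf3 and the claudins other than Cldn9 stood out in the column of 151 cells, while Prrx1, Lum, Dcn and Acta2 were highest in the column of 1862 cells.

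Over single tumor cells, each thinned to 10000 UMIs, an epithelial sum made up mostly of keratins was opposed to the mesenchymal sum without vimentin. The 4 keratins gave 321622 of the 367344 epithelial UMIs of control tumor cells. Spearman's rho between the epithelial and the mesenchymal sum was -0.09 over 5653 control cells and -0.02 over 5038 iIRE cells with all 16 mesenchymal genes, of which Vim gave 901595 of 1375263 UMIs in control. Without Vim, rho was -0.61 in control and -0.62 in iIRE cells. Against the mesenchymal sum without Vim, Krt18 alone was at -0.63 in both libraries, and Cdh1 at -0.17 and -0.22. Epcam was at -0.01 and -0.04, Cldn7 at -0.01 and -0.05, Tjp1 at -0.03 and -0.08, and Jup at 0.34 and 0.39. The cells of a library share its tumors and its depth, so these are descriptions with no test.

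Vim moved with the keratins. The pair Krt18 and Vim had a rho of 0.46 in control and 0.49 in iIRE cells, while Vim and Mgp were at -0.36 and -0.38. Krt8 and Krt18, which form 1 filament, were at 0.79 and 0.81. Krt18 was opposed to Sparc, at -0.57 and -0.55, and to Mgp, at -0.49 and -0.54. Sparc and Mgp went together, at 0.52 and 0.57, as did Lum and Dcn, at 0.52 in both, and Prrx1 and Lum, at 0.47 and 0.50. Jup was the epithelial gene that went with the matrix, at 0.33 and 0.37 with Sparc.

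Among the rare epithelial genes, presence in the same cell was counted against the number that 2 independent genes would give. Epcam and Elf3 were together in 45 control and 65 iIRE cells, 7.56 and 8.39 times that number, and Epcam and Cdh1 in 35 and 51, 5.63 and 7.06 times. Krt19 and Lum were together in 124 and 62 cells, 0.357 and 0.218 times the number. Snai1 and Cdh1 were together in 37 and 13 cells, 0.540 and 0.186 times. For Epcam and Zeb1 the ratio was 1.04 in both libraries, so that these genes were found together about as often as independent genes are. Acta2 and Tagln were together 6.82 and 6.28 times the number.

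**Figure D4:**
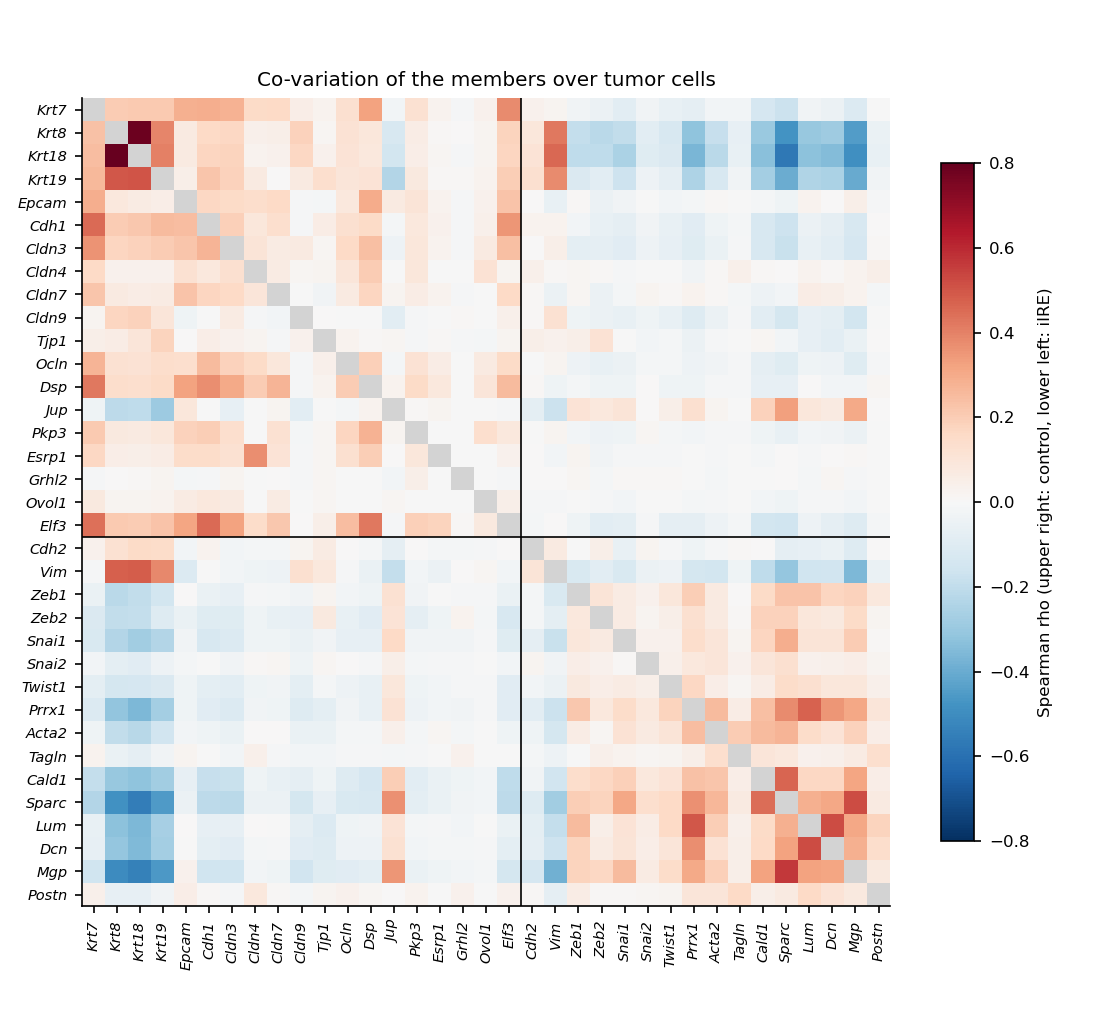
Spearman rho between each pair of genes over tumor cells thinned to 10000 UMIs, by color, with the control library in the upper right and the iIRE library in the lower left. The matrix genes with Prrx1 formed a block of positive values, Krt8, Krt18 and Vim formed another, and the 2 libraries mirrored each other, as for Krt18 and Sparc at -0.57 and -0.55.

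Ordering the cells by the UMIs of the 4 keratins showed the same genes as gradients. Cells of each library were split into 5 groups of equal size, quintile 1 with the fewest keratin UMIs and quintile 5 with the most, after thinning to 10000 UMIs. From quintile 1 to quintile 5 of the control library, Vim went from 5051 to 9135 mean CPM and Cdh2 from 11.8 to 28.4. In the iIRE library, Vim went from 5270 to 9873 and Cdh2 from 13.0 to 39.4. Vim and Cdh2 were thus higher in the quintiles with more keratin. This did not hold for the most keratin-rich cells, since in cluster 9 Vim was at 5515 CPM and Cdh2 at 16.3 CPM, below their levels over all tumor cells of either library.

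Matrix genes ran the opposite way. In control cells, Sparc went from 3572 to 941, Mgp from 1242 to 83.2, and Lum from 285 to 4.60 mean CPM. Among the EMT factors, Prrx1 went from 215 to 24.9, Snai1 from 121 to 39.7, Zeb1 from 107 to 39.9 and Zeb2 from 205 to 115. Tjp1 went from 98.6 to 114 in control and from 84.0 to 124 in iIRE cells, and Jup from 278 to 170 in control. Acta2 went from 176 to 4.07 in control and from 131 to 0.894 in iIRE cells.

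The adhesion genes had most of their RNA in quintile 5. Epcam was at 5.57, 4.60, 3.72 and 6.01 mean CPM in quintiles 1 to 4 of the control library and at 46.9 in quintile 5. In the iIRE library it was between 6.65 and 11.7 in quintiles 1 to 4 and at 91.2 in quintile 5. Cdh1 was at 0.0884, 0.177, 2.92, 2.65 and 14.7 in quintiles 1 to 5 of the control library. In the iIRE library it was at 0 in quintile 1, 2.48 in quintile 4 and 24.0 in quintile 5. Cldn9 climbed earlier, from 0.265 in quintile 1 to 10.5 in quintile 4 and 14.8 in quintile 5 of the control library. Cells of quintile 5 had more UMIs before thinning, with medians of 24775 and 21592, than those of quintile 1, with 17863 and 16025.5, and the part of this in the gradients was not tested.

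**Figure D5:**
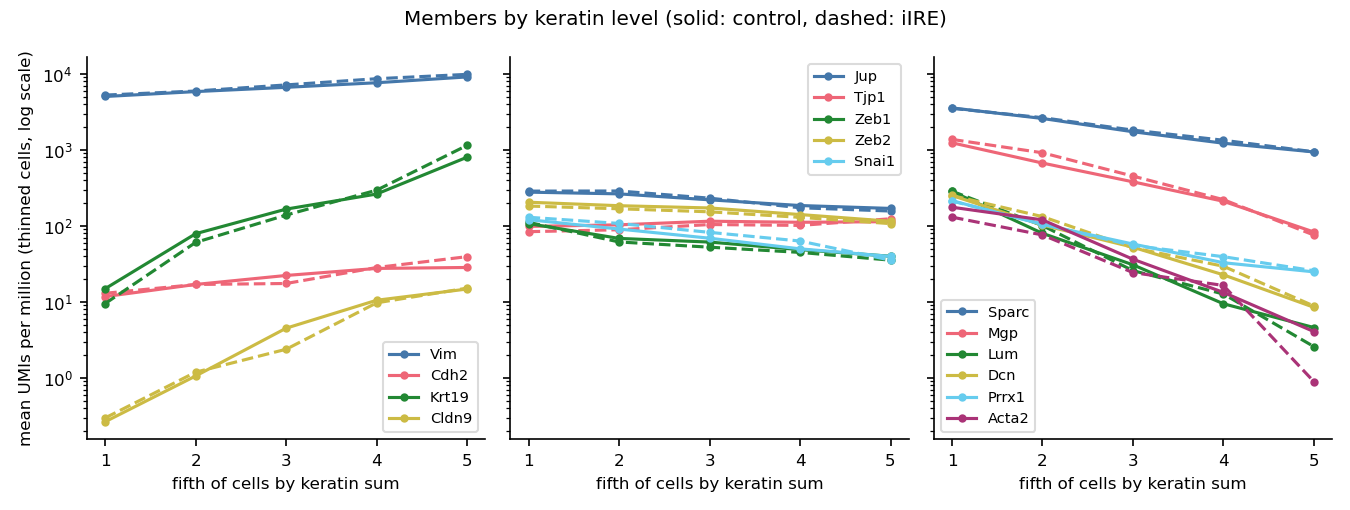
Mean CPM (log axis) of genes in tumor cells ordered into 5 groups by keratin UMIs, from fewest (1) to most (5), in control (solid) and iIRE (dashed) cells thinned to 10000 UMIs. Vim and Cdh2 were higher with more keratin, from 5051 to 9135 and from 11.8 to 28.4 in control cells. The genes of the middle panel, such as Snai1 from 121 to 39.7, moved less than Lum, which went from 285 to 4.60 in control cells.

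Few cells had several sparse epithelial genes at once. Epcam, Cdh1, Cldn3, Cldn4, Cldn7, Ocln, Dsp, Pkp3 and the regulator Elf3 were counted in cells thinned to 10000 UMIs. Jup, Tjp1 and Cldn9 were not in this list. Of these 9 genes, 84.8% of control and 84.7% of iIRE tumor cells had 0 detected, and 12.6% and 12.2% had 1. Cells with 3 or more numbered 77 in each library, 1.36% (1.08% to 1.70%) of control and 1.53% (1.21% to 1.91%) of iIRE tumor cells. In these cells Krt8 was at 4970 and 6171 CPM and Vim at 6479 and 4913 CPM, against 837 and 967 CPM of Krt8 and 6843 and 7393 CPM of Vim in cells with 0. Zeb1 was at 41.6 and 23.4 CPM in the cells with 3 or more and at 65.7 and 62.8 CPM in those with 0. Of the 77 cells, 6 in control and 1 in iIRE had a Y-linked UMI, against 0.955% and 0.516% of all tumor cells. Y-linked RNA was at 4.68 and 0.675 CPM in the cells with 3 or more, against 0.476 and 0.333 CPM in those with 0. Cdkn2a was at 808 and 714 CPM, against 1359 and 1469 CPM. The part of host RNA in these cells was not tested.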

How the data were processed

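Per the sample labels, the authors aligned reads to mm10 with STAR in Cell Ranger. The file header gives its version as 7.0.1, while the paper's methods name another version. The deposited counts were raw UMIs per gene and barcode, before the filters below. Barcode endings gave the library, and the 458 barcode sequences found in both were kept as separate cells.

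Cells had at least 200 genes and 1000 UMIs, log10 genes over log10 UMIs of 0.7 or more, and at most 5% mitochondrial and 5% hemoglobin UMIs. DoubletFinder was not run, and doublets were removed by a score from simulated neighbors (14.2% of control and 15.1% of iIRE cells). Fibroblasts had at least 10000 UMIs, 1% of UMIs from Col1a1, Col1a2 and Col3a1 and at most 1 Cdkn2a UMI, and macrophages at least 3000 UMIs and 0.5% of C1q UMIs. Tumor cells held 127048675 control and 103414280 iIRE UMIs, with 31 and 23 cells exactly at 3 Cdkn2a UMIs.

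Counts were summed per library, with exact Poisson intervals for CPM and Clopper-Pearson intervals for shares, which take UMIs as independent. Clusters came from leidenalg 0.10.2 at resolution 0.5 and TMM factors from edgeR 4.0.16. The steps were tested on simulated data. All 35 genes may be named, and of other lists the 3 with most CPM and the 2 largest ratios each way past 1.2-fold. Cluster values were chosen after they were seen. The genes and lists were chosen with earlier results of these data known. Of the alternatives, 16 were planned and 4 were chosen after seeing the data.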

Additional observations from a re-analysis of the deposited data

Results flagged for a closer look

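Acta2, which encodes smooth muscle actin, moved in opposite directions in the 2 cell types. The log2 ratio of iIRE over control, with 10 CPM added, was -0.53 in tumor cells and 1.84 in host fibroblasts. With 1 library per group and cell type, the difference between the cell types was not tested. Across the other definitions of fibroblasts, Acta2 was at 198 to 238 CPM in control and 737 to 968 CPM in iIRE fibroblasts.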

How the results depend on the processing

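Of 391 values of single genes under the alternatives, 344 moved by less than the margin of their interval, 47 moved more, and 0 calls changed direction. That interval was computed without added CPM, while the ratios compared had CPM added. For sparse genes the interval is wide, so staying within it says little about stability. Of 106 group values, 85 stayed within their interval, within 1.5 times a count or within 0.05 of a correlation, 21 moved more, and 0 calls changed direction. With 1 CPM added, 8 epithelial genes were higher and 3 mesenchymal genes lower (3.34% and 3.39% of all genes), and with no doublets removed 2 mesenchymal genes were lower (0.629% of all genes). Without the 151 cells of cluster 9, chosen after seeing the data as the cluster of highest epithelial sum, 0 epithelial genes were higher with 10 CPM added. The log2 ratio of the epithelial sum was 0.17 with no doublets removed, 0.18 from 5000 UMIs, 0.19 from 1 Cdkn2a UMI, 0.22 without cells above 40000 UMIs, 0.16 without cluster 9, 0.21 with TMM and 0.22 with equal weight per cell. That of the mesenchymal sum was 0.061 with no doublets removed, 0.056 from 5000 UMIs, 0.078 without cluster 9 and 0.083 with TMM. The correlation of the sums was -0.020 in control and 0.009 in iIRE from 5000 UMIs, and -0.12 in iIRE by Pearson on log1p. Without Vim it was -0.607 in control and -0.616 in iIRE, and without Vim and cluster 9 it was -0.597 and -0.595. The causes of these shifts were not tested. Depth limits the sparse genes most, since Esrp1 and Ovol1 had too few UMIs to be counted and 3 counts in fibroblasts are already 4.34 CPM in control. With 1 library per group, the spread between tumors is unknown.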

Other observations

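Among other genes of the same programs, some matrix genes were lower in iIRE tumor cells. Of 42 other mesenchymal genes measured in tumor cells, 0 were higher past 1.2-fold in iIRE and 8 were lower. Over all 14381 genes, 0.584% were higher and 0.834% lower, and these shares stand beside the counts of every list below. Mmp14, a membrane-anchored protease that cleaves collagen, was at 308 CPM in control and 226 CPM in iIRE tumor cells, and Col1a2, a collagen I chain, at 294 and 224 CPM. The most abundant of the list, Fn1 (fibronectin), Col1a1 and Col3a1, were at 4466 and 3857, 3459 and 2966, and 2488 and 2292 CPM. Of 33 other epithelial genes, 1 was higher, Lgals4, at 29.6 and 44.0 CPM, a gene that also led cluster 9, and 0 were lower. Of 19 genes of the TGF-beta and BMP routes, 2 were higher, Id3 at 216 and 276 CPM and Id1 at 28.7 and 37.0 CPM, and 1 was lower, Ccn2, at 371 and 269 CPM. Of 13 classical-type pancreatic cancer genes, Lgals4 and Cdx2 (49.1 and 61.9 CPM) were higher and Tff1 (3.76 and 0.0483 CPM) was lower. Of 9 basal-like genes, 1 was higher, Cst6, at 39.0 and 52.9 CPM. Of 12 proliferation genes, 0 were past 1.2-fold.

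Among 5498 genes seen in at least 20% of tumor cells, those whose UMIs ranked most like the epithelial sum over cells were Hmga1, with a mean rho of the libraries of 0.60, Anxa2 (0.55), Mgst3 (0.54), Ezr (0.53), Serpinb6a (0.52), and Lgals3, Msln, Itgb4, Ifitm1 and Itga6 (each 0.50). Itga6 and Itgb4 encode the integrin of hemidesmosomes, and Ezr encodes ezrin of the apical membrane. Ranked most opposite were Col3a1 (-0.65), Col1a1 (-0.60), Col6a2 (-0.59), Col6a1 (-0.57), Col5a1 (-0.53), Tnc and Pdgfrl (each -0.49), and Serpine2, Fbn1 and Pdgfrb (each -0.48). These are matrix genes and PDGF receptor genes for the most part, and the ranking is a description over cells of 2 libraries.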
